A study of Mus musculus with 12 samples.

Results

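Myogenic cells sorted from mouse teratomas were compared with satellite cells sorted from adult mouse hindlimb muscle, across the genes of a deposited table of FPKM values (fragments mapped to a transcript, scaled to its length and to the mapped fragments of the library). The comparison used 6 of the 12 RNA-seq libraries of the series, the 3 teratoma and the 3 adult libraries, taken by their labels. A teratoma is a tumour of many tissues that grows from pluripotent stem cells placed in a host. The teratoma cells were derivatives of pluripotent stem cells taken from 3-week-old teratomas, and no animal age is labelled for them. The adult cells came from the total hindlimbs of 8-week-old males. The labels give every library the strain 129P2/OlaHsd and the same flow sort after collagenase and dispase digestion. That sort kept cells positive for α7-integrin and VCAM. It dropped cells stained for CD31, an antigen of endothelium, or for CD45, an antigen of leukocytes. The labels do not name the pluripotent line, its clone or sex, the host of the tumours, the site of injection, or the number of tumours or mice behind a library. The other 6 libraries held the same sorted fraction from tibialis anterior muscle 1 month after transplantation of teratoma-derived cells, and from whole E14.5 embryos. They shared the estimate of spread, and their levels are given beside some genes as a description only.

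Satellite cells are the resident stem cells of skeletal muscle. They lie between the fibre and its basement membrane, are mostly quiescent in adult muscle and are marked by the transcription factor Pax7. When they are activated, Myf5 and Myod1 drive commitment to the muscle lineage, and Myog and Mef2 factors drive differentiation and fusion. The series title names muscle stem cells made from pluripotent cells as the subject. The comparison therefore asks how cells of that origin, sorted with the antibodies used for satellite cells, differ in transcripts from the native adult population.

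Read depth was unknown, because only FPKM values were deposited. Between 11609 and 12000 genes reached 1 FPKM in a teratoma library, against 9495 to 9624 in an adult library. Pearson correlations across the 12699 genes tested averaged 0.909 among teratoma libraries, 0.785 between teratoma and adult libraries and 0.943 among adult libraries. Small and ribosomal RNA, counted with any genes of the mitochondrial genome, made up 61.1% to 90.7% of the FPKM sum in the teratoma libraries. In the adult libraries they made up 85.4% to 98.2%. The highest share was that of adult 2, where the microRNA gene Mir5115 alone had 1.05e+07 of 1.23e+07 FPKM. That gene was listed at 0 in every other teratoma and adult library. These are shares of FPKM and not of reads. According to the design text each group has 3 biological replicates, and none is tied to an animal or tumour. The spread behind the p-values is that between these samples and may be technical. A value of 0 can be a failed estimate in such a table, and is given as listed.

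The genes of the sort and the muscle regulators were read first. Itga7, which encodes the α7-integrin of the sort, had 48.2, 43.3 and 40.2 FPKM in the teratoma libraries, against 61.6, 61.8 and 62.6 FPKM in the adult libraries. All 3 teratoma values lay below the adult ones, by a small amount (log2 change -0.49 ± 0.17 SE, adjusted p = 0.0321). That call was lost without any 1 of the libraries adult 1, 2 and 3 and teratoma 2 and 3 (adjusted p over leaving out each library 0.0335 to 0.096). Vcam1, for the second antigen, had 119.7, 82.8 and 66.7 FPKM in the teratoma libraries, against 106, 117 and 83.9 FPKM in the adult libraries, and was not called (log2 change -0.21 ± 0.21 SE, adjusted p = 0.427). Under median-ratio scaling, in which each library is divided by the median ratio of its genes to their mean over libraries, Vcam1 was called lower (adjusted p over all alternatives 0.00737 to 0.936). Pecam1, which encodes CD31, had 9.62, 5.49 and 6.13 FPKM in the teratoma libraries, against 2.15, 3.06 and 4.8 FPKM in the adult libraries and was not called in the fit of 12 libraries (adjusted p = 0.16). Its teratoma values all lay above its adult values, and it was called higher in the fit of the 6 libraries alone (adjusted p over all alternatives 0.0415 to 0.715). Ptprc, which encodes CD45, did not pass the expression filter. It was at 0.476, 0.801 and 1.44 FPKM in the teratoma libraries and was listed at 0 in all 3 adult libraries.

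Pax7, the transcription factor that marks satellite cells (chromosome 4 from 139737062 to 139833528 in mm10), had 25.5, 23.5 and 20.1 FPKM in the teratoma libraries, against 8.24, 9.02 and 10.1 FPKM in the adult libraries. Every teratoma library lay above every adult library (log2 change 1.25 ± 0.19 SE, adjusted p = 0.000315). Myf5, which acts early in commitment (chromosome 10 from 107482908 to 107486134), had 71.5, 49.9 and 43.9 FPKM in the teratoma libraries, against 40.8, 47.1 and 38.1 FPKM in the adult libraries, with overlapping groups and no call (adjusted p = 0.174). The order was the other way for Myod1, the determination factor (chromosome 7 from 46376474 to 46379099), with 62.2, 37.1 and 51.9 FPKM in the teratoma libraries, against 423, 442 and 343 FPKM in the adult libraries. No teratoma value came near the lowest adult value, and the difference was called (log2 change -3.00 ± 0.29 SE, adjusted p = 1.39e-05). Myog, a factor of terminal muscle differentiation (chromosome 1 from 134289989 to 134292548), had 19.5, 30.1 and 39.6 FPKM in the teratoma libraries, against 4.08, 4.03 and 1.97 FPKM in the adult libraries. It was thus higher in every teratoma library (log2 change 2.81 ± 0.38 SE, adjusted p = 0.000139). The MADS-box factor Mef2c, a partner of Myog, was higher as well, with 6.12, 7.84 and 6.67 FPKM in the teratoma libraries, against 0.549, 1.0 and 0.325 FPKM in the adult libraries (log2 change 2.29, adjusted p = 3.39e-05). Nfix, a nuclear factor I protein of fetal muscle, had 59.9, 61.2 and 62.9 FPKM in the teratoma libraries, against 32, 39.8 and 35.6 FPKM in the adult libraries (log2 change 0.77, adjusted p = 0.00147). Pax3, the relative of Pax7 that acts in the embryo, stayed near or below 1 FPKM in all 6 libraries, and Myf6 had 1.36, 0.113 and 3.1 FPKM in the teratoma libraries, against 0.607, 0 and 0 FPKM in the adult libraries. Neither was called (adjusted p = 0.761 and 0.125), though Myf6 was called higher when teratoma 2 was left out (adjusted p over leaving out each library 0.0234 to 0.423). Pax3 was called lower under quantile normalization (adjusted p over all alternatives 0.0444 to 0.954). In the other groups, Myod1 was at 41.6 ± 13.3 FPKM in transplant and 18.2 ± 6.35 FPKM in embryo libraries (SD, n = 3 each), both close to or below the teratoma level. The Nfix call was lost under median-ratio scaling (adjusted p over all alternatives 0.000737 to 0.288).

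**Figure D1:**
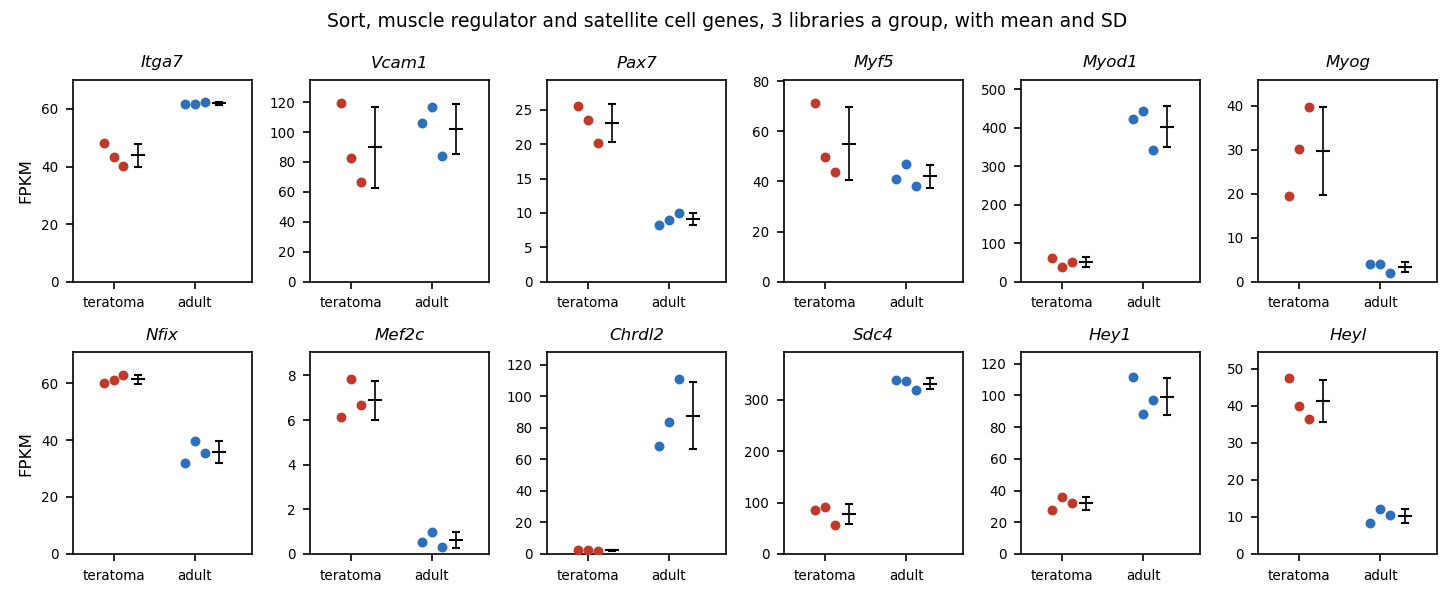
FPKM in each of the 3 teratoma and 3 adult libraries for genes of the sort, muscle regulators and satellite cell genes, with each group's mean and SD (n = 3) beside its points. Teratoma points lie above adult points for Pax7, Myog, Nfix, Mef2c and Heyl, below them for Itga7, Myod1, Chrdl2, Sdc4 and Hey1, and overlap them for Vcam1 and Myf5.

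Most differences across all genes ran upwards in teratoma cells. With limma on log2(FPKM + 1) over 12 libraries and Benjamini-Hochberg adjustment over all genes tested, 5763 of 12699 genes were called at an adjusted p under 0.05 (45.4%). Of these, 4628 were higher in teratoma cells (36.4% of the genes tested) and 1135 lower (8.94%). A log2 change of at least 1 as well was met by 3396 higher genes (26.7%) and 600 lower genes (4.72%). Teratoma libraries lay wholly above adult libraries for 5797 genes (45.6%) and wholly below them for 1614 (12.7%). The split between higher and lower rested on the scaling. The median change of all genes tested was 0.50 as deposited, and 80.3% of calls were higher. Under median-ratio scaling the median was 0.12, with 2923 higher and 2590 lower calls (53.0% higher). Under quantile normalization the median was -0.05, with 2285 higher and 2411 lower calls (48.7% higher). After rescaling without small and ribosomal RNA the median was 0.37, with 3908 higher and 1572 lower calls (71.3% higher). Changes below are on the deposited scale, so a median list change of about 0.50 equals that of all genes, and changes of low genes are understated. Many members of the gene lists below passed the expression filter through the group where they were high. Their counts and medians are therefore descriptions, to be read beside the percentages and the median of all genes given here.

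**Figure D2:**
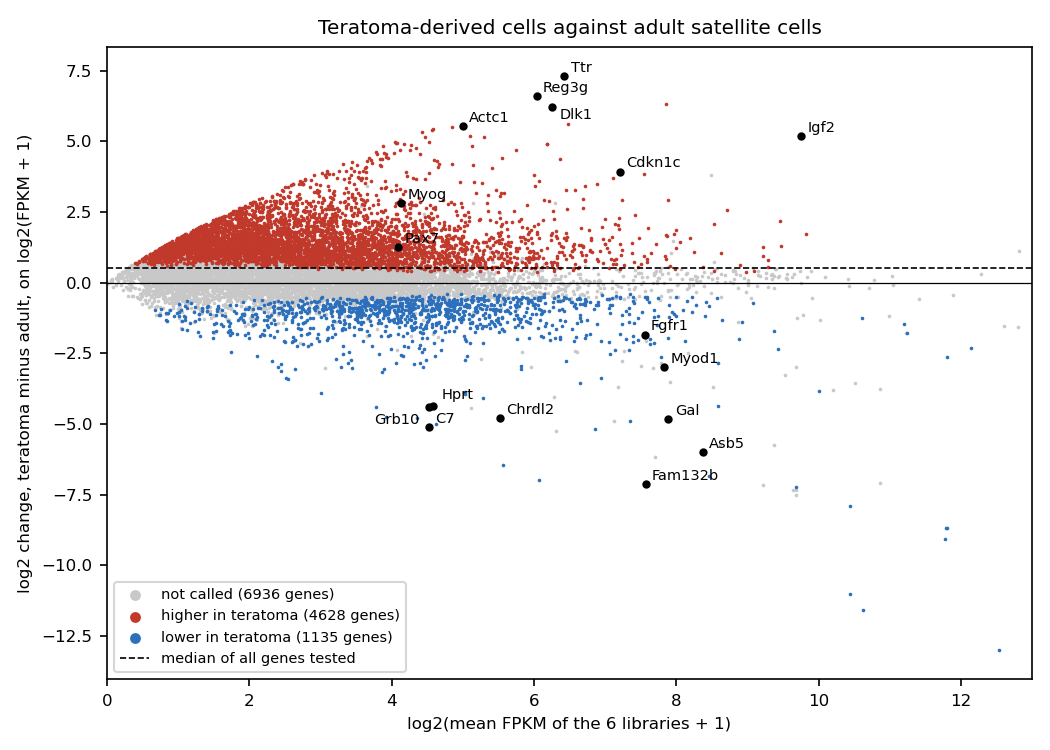
Log2 change (teratoma minus adult, on log2(FPKM + 1)) against log2 of the mean FPKM of the 6 libraries plus 1, for the 12699 genes tested. Red points are called higher in teratoma cells (4628), blue points lower (1135) and grey points not called; the dashed line is the median change of 0.50, and named genes are in black. The points below a change of -8 are small RNA genes.

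Transcripts of other tissues were present in the teratoma fraction. All 20 tested markers of epithelial and endodermal cells were called higher in teratoma cells, with a median log2 change of 3.77. Their FPKM summed over the marker list to 768, 888 and 337 in the teratoma libraries, against 7.78, 3.74 and 6.68 in the adult libraries. Of the 35 such markers in the table, 20 were listed at 0 in all 3 adult libraries and 2 in all 3 teratoma libraries. The largest was Ttr, the thyroid hormone carrier made by liver, choroid plexus and yolk sac, with 216, 204 and 91 FPKM in the teratoma libraries and 0 in every adult library (adjusted p = 2.57e-08). Reg3g, a lectin of gut epithelium, had 203, 159 and 26.5 FPKM in the teratoma libraries and Cldn4, a tight junction claudin, had 64.7, 85.7 and 15.8 FPKM, and both were also listed at 0 in all 3 adult libraries. The simple-epithelial keratins followed, with Krt8 at 41.1, 70.8 and 25.6 FPKM and its partner Krt18 at 36.1, 71.5 and 28.4 FPKM in the teratoma libraries. Krt8 was listed at 0 in all 3 adult libraries and Krt18 reached at most 0.0582 FPKM there. Teratoma replicate 3 had the lowest value for each of these 5 genes. In bulk samples, fewer cells of a type and less RNA per cell cannot be told apart.

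Leukocyte and macrophage markers were higher too, although CD45-positive cells had been sorted away. Of the 16 tested, 14 were called higher and 0 lower, and the summed level was 91.6, 125 and 255 FPKM in the teratoma libraries, against 9.01, 12.4 and 23.9 FPKM in the adult libraries. Here replicate 3 was highest in each group. Lyz2, the lysozyme of macrophages, had 31.8, 28.1 and 77.9 FPKM in the teratoma libraries, against 0.494, 0.152 and 4.66 FPKM in the adult libraries. C1qa, a complement subunit made by macrophages, had 10.4, 5.11 and 10.4 FPKM in the teratoma libraries, against 0, 0 and 0.29 FPKM in the adult libraries. The lysosomal gene Cd68 had 6.95, 5.89 and 13 FPKM in the teratoma libraries, against 7.06, 6.74 and 10.5 FPKM in the adult libraries and was not called (adjusted p = 0.969). The macrophage genes Lyz2 and C1qa were thus higher in every teratoma library, and Cd68 was not. The T-cell gene Cd3e was listed at 0 in all 6 libraries, and Ptprc, Tyrobp, Fcer1g and C1qc were listed at 0 in all 3 adult libraries.

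Among stromal markers, 10 of 13 were called higher and 0 lower for cartilage and bone, and 9 of 12 higher and 1 lower for mural cells. For endothelium 8 of 17 were called higher and 0 lower, and for fibroblasts 9 of 20 higher and 2 lower, beside 36.4% higher of all genes. The last 2 lists rested on the scaling. Under median-ratio scaling endothelium had 3 higher and 1 lower, and fibroblasts 6 and 5. Under quantile normalization they had 1 and 1, and 6 and 1. Cartilage and mural lists kept 9 and 0, and 8 and 1, under median-ratio scaling. The endothelial list also holds Pecam1, which was not called in the fit of 12 libraries. Col2a1, the collagen of cartilage, had 30.1, 14.2 and 38.6 FPKM in the teratoma libraries, against 0, 0.0618 and 0.283 FPKM in the adult libraries. Acan, the cartilage proteoglycan aggrecan, had 3.43, 2.7 and 6.13 FPKM in the teratoma libraries, against 0, 0.0172 and 0 FPKM in the adult libraries. Cdh5, the endothelial cadherin, was present in both groups, with 21, 17.8 and 17.3 FPKM in the teratoma libraries, against 3.95, 4.38 and 6.08 FPKM in the adult libraries. Pdgfrb, a receptor of pericytes, had 31, 37.2 and 32.6 FPKM in the teratoma libraries, against 7.17, 6.76 and 7.68 FPKM in the adult libraries, and Acta2, smooth muscle actin, had 198, 262 and 233 FPKM in the teratoma libraries, against 63.8, 65.3 and 39 FPKM in the adult libraries. Desmin, the intermediate filament of muscle that stands on the mural list, went against them, with Des at 62.4, 79.8 and 71.1 FPKM in the teratoma libraries, against 238, 285 and 265 FPKM in the adult libraries (log2 change -1.87 ± 0.25 SE, adjusted p = 0.000112). Gsn, which encodes the actin-severing protein gelsolin and stands on the fibroblast list, was also lower, with 78.1, 95.5 and 107 FPKM in the teratoma libraries, against 669, 713 and 644 FPKM in the adult libraries (log2 change -2.85, adjusted p = 2.05e-06). Summed fibroblast markers reached 2379, 3329.6 and 3801 FPKM in the teratoma libraries, against 2308, 2152 and 1793 FPKM in the adult libraries, and every such marker was detected in both groups.

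Neural and Schwann cell markers were divided, and 7 of 14 were called higher and 2 lower. Gfap, the glial intermediate filament, had 47.4, 56.9 and 26.6 FPKM in the teratoma libraries, against 0.364, 0.176 and 0.569 FPKM in the adult libraries (log2 change 4.97 ± 0.28 SE, adjusted p = 3.27e-07). Dcx, of young neurons, had 6.83, 4.46 and 5.05 FPKM in the teratoma libraries, against 0.155, 0.362 and 0.125 FPKM in the adult libraries, and the neurotrophin receptor gene Ngfr had 9.44, 7.0 and 10.8 FPKM in the teratoma libraries, against 1.74, 1.2 and 0.907 FPKM in the adult libraries. Mbp, for myelin basic protein, ran the other way, with 1.74, 2.08 and 0.631 FPKM in the teratoma libraries, against 9.24, 6.76 and 4.89 FPKM in the adult libraries (adjusted p = 0.0123), a call that was lost without teratoma 3 (adjusted p over leaving out each library 0.0184 to 0.0523). Erythroid genes were called in neither direction in any of 7, and their sums overlapped. How far cells of these types contribute to the differences described below was not tested, and their summed levels are repeated where a list touches them.

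**Figure D3:**
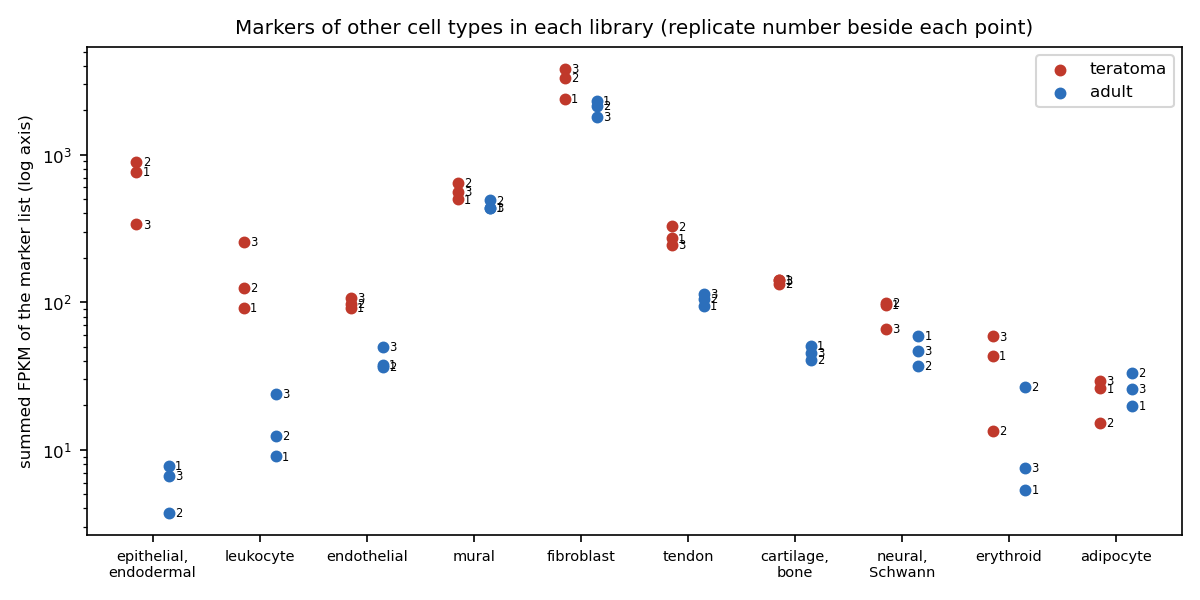
Summed FPKM of the marker list of each other cell type (log axis) in the 3 teratoma and 3 adult libraries, with the replicate number beside each point. Epithelial and endodermal sums are 337 to 888 in teratoma and 3.74 to 7.78 in adult libraries, leukocyte sums are 91.6 to 255 in teratoma and 9.01 to 23.9 in adult libraries, while erythroid and adipocyte sums overlap between the groups.

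Genes outside those lists also stood among the largest increases. Dlk1, an imprinted transmembrane protein related to Notch ligands, had 159.9, 132 and 154 FPKM in the teratoma libraries, against 0.76, 0.492 and 2.03 FPKM in the adult libraries (log2 change 6.22 ± 0.32 SE, adjusted p = 2.24e-07). Actc1, the cardiac actin that developing skeletal muscle uses, had 57.8, 48.2 and 78.6 FPKM in the teratoma libraries, against 0.132, 1.01 and 0 FPKM in the adult libraries (log2 change 5.54 ± 0.31 SE, adjusted p = 3.27e-07). Igf2, the fetal growth factor, had 1786, 1606 and 1662 FPKM in the teratoma libraries, against 42, 40.7 and 53.4 FPKM in the adult libraries (log2 change 5.19 ± 0.19 SE, adjusted p = 1.9e-08), the most abundant of the genes with such a change. Its binding protein gene Igfbp2 had 32.7, 61.2 and 29.2 FPKM in the teratoma libraries and was listed at 0 in all 3 adult libraries. Fbn2, which encodes the fetal fibrillin, had 41.6, 39.4 and 44.8 FPKM in the teratoma libraries, against 0.274, 0.175 and 0.14 FPKM in the adult libraries (log2 change 5.17, adjusted p = 1.35e-07). Ccnd3, for cyclin D3, was at 63.5, 65.3 and 66.5 FPKM in the teratoma libraries, against 0, 4.83 and 0 FPKM in the adult libraries. With 2 of its 3 adult values listed at 0, the size of its difference is uncertain (adjusted p = 1.79e-05).

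Small RNA genes had the largest decreases and are left out by the naming rule. Among the largest decreases of the genes that the rule does name, Fam132b, Asb5 and Gal were at high level in adult satellite cells. The rule asks for a higher mean of at least 5 FPKM, so decreases of low genes could not appear here. Fam132b, which encodes the secreted hormone erythroferrone, had 1.76, 1.15 and 2.39 FPKM in the teratoma libraries, against 390.1, 349.6 and 391 FPKM in the adult libraries (log2 change -7.12 ± 0.55 SE, adjusted p = 2.76e-06). Asb5, an ankyrin-repeat protein with a SOCS box, had 11.8, 9.09 and 7.37 FPKM in the teratoma libraries, against 644, 633 and 681 FPKM in the adult libraries (log2 change -5.99 ± 0.23 SE, adjusted p = 1.9e-08). Gal, the neuropeptide galanin, had 27.9, 14.9 and 8.23 FPKM in the teratoma libraries, against 483, 412 and 471 FPKM in the adult libraries (log2 change -4.81, adjusted p = 1.79e-05). No teratoma value of these 3 genes came near an adult one. The next 3 genes were also lower without overlap of the groups. C7, a component of complement, had 0.0594, 0.0669 and 0.875 FPKM in the teratoma libraries, against 50.3, 41.6 and 38.8 FPKM in the adult libraries (log2 change -5.11, adjusted p = 6.35e-07). Adarb1, an enzyme that edits adenosine to inosine in RNA, had 4.2, 2.86 and 2.55 FPKM in the teratoma libraries, against 60.2, 55.9 and 63.4 FPKM in the adult libraries (log2 change -3.87, adjusted p = 1.81e-06). Arl4d, a small GTPase of the Arf family, had 17.2, 15.2 and 11.8 FPKM in the teratoma libraries, against 182, 186 and 181 FPKM in the adult libraries (log2 change -3.56, adjusted p = 7.11e-05). For another pair of genes the size of the decrease is uncertain, because a listed 0 can be a failed estimate. Neu2, a cytosolic sialidase, and Surf2 were listed at 0 in all 3 teratoma libraries, against 11.1, 13.8 and 17.1 FPKM and 10.01, 9.76 and 9.12 FPKM in the adult libraries. In transplant libraries Asb5 was at 69.8 ± 22 FPKM and Gal at 14.6 ± 12.6 FPKM (SD, n = 3 each). In embryo libraries no value of Fam132b, Asb5 or Gal exceeded 0.403 FPKM.

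Genes that mark quiescent satellite cells moved in both directions. Of the 43 tested, 14 were called higher and 9 lower, beside 36.4% higher and 8.94% lower of all genes, with a median change of 0.09. The share of higher calls was thus close to that of all genes, and the share of lower calls was above it. That median lay below the 0.50 of all genes, and the counts turned to 7 higher and 16 lower under median-ratio scaling and 7 higher and 14 lower under quantile normalization. Chrdl2, a secreted BMP antagonist, had 2.27, 2.73 and 1.54 FPKM in the teratoma libraries, against 68.6, 83.8 and 111 FPKM in the adult libraries (log2 change -4.79 ± 0.34 SE, adjusted p = 1.78e-06). Sdc4, a syndecan co-receptor for growth factors, had 85.8, 90.5 and 55.5 FPKM in the teratoma libraries, against 339, 336 and 319 FPKM in the adult libraries (log2 change -2.12 ± 0.27 SE, adjusted p = 9.69e-05). Its relative Sdc3 had 23, 35.8 and 28.9 FPKM in the teratoma libraries, against 3.57, 1.66 and 1.33 FPKM in the adult libraries (log2 change 3.29 ± 0.26 SE, adjusted p = 3e-06), so these syndecans differed in opposite directions. Cav1, for caveolin 1, had 252, 164 and 174 FPKM in the teratoma libraries, against 132, 147 and 149 FPKM in the adult libraries, and Itgb1, the integrin chain that pairs with α7, had 211, 158 and 127 FPKM in the teratoma libraries, against 156, 137 and 117 FPKM in the adult libraries. Neither was called (adjusted p = 0.283 and 0.308).

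Cyclin-dependent kinase inhibitors, which hold cells out of the cycle, were mostly higher as deposited, but not all. Of 7 tested, 5 were called higher and 1 lower, beside 36.4% and 8.94% of all genes, with a median change of 1.26. Cdkn1c, the imprinted inhibitor p57, had 316, 244 and 265 FPKM in the teratoma libraries, against 26.6, 18.2 and 10.1 FPKM in the adult libraries (log2 change 3.93 ± 0.30 SE, adjusted p = 2.58e-06). Cdkn1a, the inhibitor p21, had 83.4, 95.2 and 76.7 FPKM in the teratoma libraries, against 156, 135 and 151 FPKM in the adult libraries, lower in every teratoma library (log2 change -0.79, adjusted p = 0.0227). Cdkn1b, the inhibitor p27, had 29.1, 24.3 and 31 FPKM in the teratoma libraries, against 12.9, 13.7 and 14.8 FPKM in the adult libraries (log2 change 0.97, adjusted p = 0.0332). Of the INK4 family, Cdkn2b had 4.34, 5.97 and 3.23 FPKM in the teratoma libraries, against 1.38, 1.41 and 0.976 FPKM in the adult libraries and Cdkn2d had 8.52, 13.8 and 8.56 FPKM in the teratoma libraries, against 3.75, 3.09 and 0.63 FPKM in the adult libraries, both called higher (adjusted p = 0.00563 and 0.00993). Cdkn2a was listed at 0, 3.46 and 2.08 FPKM in the teratoma libraries and at 0 in all 3 adult libraries (adjusted p = 0.0332). The calls of Cdkn1a, Cdkn1b and Cdkn2a were not firm. The call of Cdkn1a was lost without adult 1, adult 3, teratoma 1 or teratoma 3, and that of Cdkn1b without any single library (adjusted p over leaving out each library 0.0352 to 0.0709 and 0.0506 to 0.0908). That of Cdkn2a was lost without any 1 library but teratoma 1 (0.000478 to 0.141). Under median-ratio scaling 4 of 7 inhibitors were higher and 1 lower, and under quantile normalization 1 and 1.

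Genes of DNA replication and mitosis were higher in teratoma cells almost throughout. Of the 37 tested, 32 were called higher and 0 lower among genes of S phase, with a median change of 1.8, and 25 and 2 under median-ratio scaling. Mcm6, a subunit of the replicative helicase, had 25.3, 15.3 and 22.3 FPKM in the teratoma libraries, against 0.351, 0.539 and 1.57 FPKM in the adult libraries (log2 change 3.62 ± 0.27 SE, adjusted p = 2.05e-06). Mcm2, another subunit, had 17.5, 16.9 and 22.5 FPKM in the teratoma libraries, against 1.02, 0.376 and 0.0347 FPKM in the adult libraries (log2 change 3.80, adjusted p = 9.28e-07). Ccne1, a cyclin at the entry to S phase, had 25.7, 22.4 and 19 FPKM in the teratoma libraries, against 0.188, 0.975 and 0.51 FPKM in the adult libraries (log2 change 3.93, adjusted p = 4.52e-06). All 3 genes were low in adult cells and higher in each teratoma library. Rrm2, the regulated subunit of ribonucleotide reductase, had 19.4, 12.2 and 24.2 FPKM in the teratoma libraries, against 1.44, 1.28 and 1.88 FPKM in the adult libraries (log2 change 2.91, adjusted p = 9.58e-05). Pcna, the sliding clamp, went against the list, with 115, 79 and 58.4 FPKM in the teratoma libraries, against 96.2, 98.4 and 108 FPKM in the adult libraries and no call (log2 change -0.31, adjusted p = 0.27). It was called lower under median-ratio scaling and without teratoma 1 (adjusted p over leaving out each library 0.0352 to 0.787).

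Every tested gene of G2 and M phase was called higher in teratoma cells, 40 of 40, with a median change of 2.37. Under median-ratio scaling 38 were higher and under quantile normalization 36, with none lower in either. Cdk1, the kinase that starts mitosis, had 14.6, 15.1 and 14.4 FPKM in the teratoma libraries, against 0.0687, 0.527 and 0 FPKM in the adult libraries (log2 change 3.74 ± 0.25 SE, adjusted p = 1.04e-06). Top2a, which untangles sister chromatids, had 31.9, 20.6 and 22.7 FPKM in the teratoma libraries, against 2.18, 2.13 and 0.625 FPKM in the adult libraries (log2 change 3.34 ± 0.29 SE, adjusted p = 5.45e-06). Ube2c, the ubiquitin-conjugating enzyme of the anaphase-promoting complex, had 37.8, 28.5 and 25.8 FPKM in the teratoma libraries, against 6.08, 2.2 and 1.054 FPKM in the adult libraries (log2 change 3.12 ± 0.38 SE, adjusted p = 6.76e-05). Birc5, for survivin of the chromosomal passenger complex, had 16.3, 15.7 and 12.3 FPKM in the teratoma libraries, against 0.32, 0.431 and 0.655 FPKM in the adult libraries (log2 change 3.42, adjusted p = 1.12e-06). Mki67, the antigen Ki-67, had 25, 16 and 20.2 FPKM in the teratoma libraries, against 2.91, 1.68 and 1.02 FPKM in the adult libraries (log2 change 2.93, adjusted p = 1.85e-05). The summed level of the 40 genes was 402, 308 and 376 FPKM in the teratoma libraries, against 43, 37 and 25.5 FPKM in the adult libraries. It was 43.6 to 77.2 FPKM in transplant and 881 to 1128 FPKM in embryo libraries, so teratoma cells stood between adult and embryonic cells on this sum.

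The S phase genes and the genes of G2 and M phase are known to be controlled through different promoter elements, E2F sites in S phase genes and the cell cycle genes homology region (CHR) in those of G2 and M phase. The promoters shown were chosen for holding a match, from members with large changes that were searched, from RefSeq on GRCm38.p6, each running from 250 bases before to 50 after the annotated start, 5′ to 3′ on the strand of the gene. Capitals mark matches to the E2F motif TTTNNCGC in Mcm6 (chr1:128359656-128359955, minus strand) and to the CHR motif TTTGAA in Cdk1 (chr10:69352863-69353162, minus strand), Top2a (chr11:99024140-99024439, minus strand) and Ube2c (chr2:164769679-164769978, plus strand), on either strand, with overlapping matches run together.
Mcm6: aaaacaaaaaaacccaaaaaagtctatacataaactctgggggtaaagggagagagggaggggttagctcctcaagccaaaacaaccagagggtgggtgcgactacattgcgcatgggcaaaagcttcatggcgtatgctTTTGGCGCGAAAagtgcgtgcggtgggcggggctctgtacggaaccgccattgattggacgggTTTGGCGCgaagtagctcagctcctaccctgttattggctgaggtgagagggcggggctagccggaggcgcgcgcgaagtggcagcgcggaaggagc
Cdk1: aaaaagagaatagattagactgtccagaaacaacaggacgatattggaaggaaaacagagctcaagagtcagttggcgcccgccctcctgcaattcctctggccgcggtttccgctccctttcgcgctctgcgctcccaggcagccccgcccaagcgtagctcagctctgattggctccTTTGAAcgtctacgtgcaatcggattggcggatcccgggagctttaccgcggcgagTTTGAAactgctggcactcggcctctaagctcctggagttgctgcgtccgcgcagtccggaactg
Top2a: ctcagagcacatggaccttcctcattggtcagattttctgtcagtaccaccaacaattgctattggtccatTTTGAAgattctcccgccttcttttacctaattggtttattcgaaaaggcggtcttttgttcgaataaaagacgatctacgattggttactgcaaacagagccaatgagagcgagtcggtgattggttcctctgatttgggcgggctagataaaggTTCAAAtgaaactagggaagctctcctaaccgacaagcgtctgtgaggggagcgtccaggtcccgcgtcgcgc
Ube2c: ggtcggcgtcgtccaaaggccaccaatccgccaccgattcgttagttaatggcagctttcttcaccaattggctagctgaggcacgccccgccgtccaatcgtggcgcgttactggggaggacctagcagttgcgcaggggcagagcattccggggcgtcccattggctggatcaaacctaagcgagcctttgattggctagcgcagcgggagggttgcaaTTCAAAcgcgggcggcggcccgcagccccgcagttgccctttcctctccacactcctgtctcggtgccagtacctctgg
Mcm6 had 3 matches to the E2F motif, of which 2 overlap on opposite strands at positions -110 and -106 and the other lies at -47, counted from the start. Cdk1 had CHR matches at -71 and -15, Top2a at -179 and -23 and Ube2c at -29. Mcm2, Ccne1 and Rrm2, searched for the E2F motif in the same window, had 0 matches, and Birc5 had 0 matches to the CHR motif. The E2F motif was found in 13 of 32 windows of S phase genes (40.6%), against 5.17% of all 32851 windows. The CHR motif was found in 30 of 36 windows of the genes of G2 and M phase (83.3%), against 17.9% of all windows. These counts cover 29 of the 37 and 34 of the 40 genes, those matched by symbol, some with more than 1 window. A CCAAT box, searched as CCAAT on both strands, was found in 83.3% of the same G2 and M phase windows, against 37.4% of all. The matches are a description of these letters and not of bound sites.

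Clustered histone genes, which are transcribed in S phase, went with them. Of the 55 tested, 47 were called higher and 0 lower, with a median change of 3.21, and 44 and 42 were higher under median-ratio scaling and quantile normalization. Hist1h2ak had 199.6, 118 and 200.2 FPKM in the teratoma libraries, against 2.28, 0.737 and 6.23 FPKM in the adult libraries and the linker histone gene Hist1h1b had 114, 81.8 and 112 FPKM in the teratoma libraries, against 4.7, 2.62 and 1.93 FPKM in the adult libraries (adjusted p = 1.21e-05 and 5.9e-06). Near-identical copies can share reads, so single histone genes are uncertain. Among enzymes of DNA methylation and Polycomb repression, 10 of 27 were called higher and 4 lower. That share of higher calls is close to the 36.4% of all genes, and the median change of 0.33 lies below their 0.50. Under median-ratio scaling 8 were higher and 7 lower, and under quantile normalization 7 and 6. The class as a whole was thus not raised, and single members are given next. Uhrf1, which brings the maintenance methyltransferase to replicated DNA, had 19.9, 15.5 and 14.51 FPKM in the teratoma libraries, against 1.97, 1.69 and 0.78 FPKM in the adult libraries (log2 change 2.85, adjusted p = 8.22e-06). Dnmt1, that methyltransferase, had 19.5, 15.1 and 17.2 FPKM in the teratoma libraries, against 2.6, 2.98 and 1.85 FPKM in the adult libraries and the de novo enzyme gene Dnmt3a had 19.6, 17.7 and 15.6 FPKM in the teratoma libraries, against 4.39, 5.74 and 4.94 FPKM in the adult libraries (adjusted p = 2.64e-06 and 4.34e-05). The Polycomb-associated histone binder Rbbp7 averaged 63.8 ± 8.34 FPKM in teratoma and 68 ± 5.02 FPKM in adult libraries (SD, n = 3 each). It was not called as deposited (adjusted p = 0.59) and was called lower under median-ratio scaling (adjusted p over all alternatives 0.00372 to 0.973).

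Sarcomere genes were higher in teratoma cells, both those of developing or slow fibres and those of adult fast fibres. Of 12 developmental and slow genes tested, 8 were called higher and none lower, and of 19 fast-fibre genes 11 were higher and 1 lower. Myh3, the embryonic myosin heavy chain, had 3.11, 5.89 and 3.51 FPKM in the teratoma libraries, against 0.0287, 0.0966 and 0.015 FPKM in the adult libraries (log2 change 2.27 ± 0.27 SE, adjusted p = 5.54e-05). Myh8, the perinatal heavy chain, had 5.53, 12.5 and 5.76 FPKM in the teratoma libraries, against 0, 0 and 0.0206 FPKM in the adult libraries (log2 change 3.06 ± 0.37 SE, adjusted p = 6.64e-05). Tnnt1, slow troponin T, had 21.1, 27.7 and 29.7 FPKM in the teratoma libraries, against 0.97, 1.62 and 2.63 FPKM in the adult libraries (log2 change 3.34 ± 0.28 SE, adjusted p = 5.07e-06). The teratoma values of these genes lay far above the adult ones yet below those of Actc1. On the fast side, Mylpf, the fast regulatory light chain, had 15.2, 35 and 28.4 FPKM in the teratoma libraries, against 0.128, 0.767 and 0 FPKM in the adult libraries, and Tnnc2, fast troponin C, had 5.47, 24 and 17.7 FPKM in the teratoma libraries, against 0.652, 0.115 and 0.916 FPKM in the adult libraries (adjusted p = 9.18e-06 and 0.000232). Acta1, skeletal actin, had 23.8, 61.5 and 35.5 FPKM in the teratoma libraries, against 10.7, 6.99 and 1.76 FPKM in the adult libraries and Tpm1, α-tropomyosin, had 137, 129.9 and 123.2 FPKM in the teratoma libraries, against 22.7, 23.3 and 18.8 FPKM in the adult libraries (adjusted p = 0.000802 and 4.82e-06). Teratoma replicate 1 had the lowest teratoma values of Mylpf, Tnnc2, Acta1 and Myog. Tpm3, a slow tropomyosin that other cells also make, had 119, 108 and 106 FPKM in the teratoma libraries, against 111, 100.2 and 112 FPKM in the adult libraries and was not called as deposited (adjusted p = 0.849). It was called lower under median-ratio scaling (adjusted p over all alternatives 0.00478 to 0.96).

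Genes of commitment, fusion and the neuromuscular junction were mixed. Of 27 genes of commitment and fusion tested, 13 were higher and 6 lower, and under quantile normalization the median of 0.74 turned to -0.07 with 8 higher and 7 lower. Musk, the receptor kinase of the neuromuscular junction, had 7.02, 7.1 and 5.52 FPKM in the teratoma libraries, against 29.8, 37.1 and 33.8 FPKM in the adult libraries (log2 change -2.20 ± 0.30 SE, adjusted p = 0.000148). Chrnb1, the β subunit of the acetylcholine receptor, had 29.7, 23.9 and 20.2 FPKM in the teratoma libraries, against 64.2, 60.1 and 60.4 FPKM in the adult libraries (log2 change -1.31 ± 0.20 SE, adjusted p = 0.00029). Chrng, the γ subunit of the fetal receptor, had 4.23, 2.26 and 5.25 FPKM in the teratoma libraries, against 0, 0 and 0.116 FPKM in the adult libraries (log2 change 2.19 ± 0.39 SE, adjusted p = 0.000874). Thus the β subunit was lower and the fetal γ subunit higher, while the α subunit gene Chrna1 averaged 5.88 ± 1.36 FPKM in teratoma and 4.7 ± 0.894 FPKM in adult libraries (SD, n = 3 each) and was not called (adjusted p = 0.45). Other members also differed in opposite directions. Dmd, for dystrophin, had 2.24, 1.64 and 1.08 FPKM in the teratoma libraries, against 9.99, 9.91 and 12.7 FPKM in the adult libraries (log2 change -2.18, adjusted p = 2.8e-05). Agrn, the nerve-derived organizer of receptor clusters, had 30.6, 35.9 and 28.9 FPKM in the teratoma libraries, against 6.12, 5.63 and 6.81 FPKM in the adult libraries (log2 change 2.19, adjusted p = 2.65e-05). The fusion gene Tmem8c, for myomaker, had 1.95, 7.16 and 5.85 FPKM in the teratoma libraries, against 0.966, 4.06 and 1.06 FPKM in the adult libraries and was not called (adjusted p = 0.14).

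Imprinted genes, which are expressed from the maternal or the paternal allele only and many of which regulate fetal growth, were mostly higher in teratoma cells, with exceptions among them. Of 44 listed, 39 were tested, and 22 were called higher and 6 lower, with a median change of 1.02. The split was 18 and 11 under median-ratio scaling. Igf2 (chromosome 7 from 142650766 to 142666816) and Dlk1 led the increases as given above. Slc38a4, an amino acid transporter, had 43.1, 29.96 and 41.3 FPKM in the teratoma libraries, against 0.493, 0.622 and 0.177 FPKM in the adult libraries (log2 change 4.77 ± 0.22 SE, adjusted p = 7.16e-08). Peg10, a paternally expressed gene derived from a retrotransposon, had 134, 102 and 116 FPKM in the teratoma libraries, against 9.49, 8.54 and 11.9 FPKM in the adult libraries (log2 change 3.43 ± 0.20 SE, adjusted p = 4.35e-07). H19, the noncoding RNA next to Igf2 (chromosome 7 from 142575529 to 142578143), had 15, 14.8 and 14.2 FPKM in the teratoma libraries, against 6.3, 6.22 and 6.58 FPKM in the adult libraries (log2 change 1.09, adjusted p = 0.000107). H19 therefore stayed under 20 FPKM in all 6 libraries, whereas it was at 1466 ± 168 FPKM in embryo libraries (SD, n = 3). Igf2 was at 865 ± 213 FPKM in transplant and 1296 ± 134 FPKM in embryo libraries.

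Grb10, which encodes an adaptor that restrains insulin and IGF signalling (chromosome 11 from 11930508 to 12038683), had 1.3, 0.788 and 1.16 FPKM in the teratoma libraries, against 43.4, 38.9 and 46 FPKM in the adult libraries (log2 change -4.40 ± 0.17 SE, adjusted p = 1.9e-08). Its levels in transplant libraries were 0.234, 0.502 and 0.569 FPKM and in embryo libraries 196, 195 and 214 FPKM, so teratoma and transplant libraries were low and embryo and adult libraries high. The transplant libraries were sorted from host muscle, and whether they hold host cells was not tested. Meg3, the noncoding RNA of the Dlk1 locus, had 277, 279.7 and 261 FPKM in the teratoma libraries, against 328, 339 and 366 FPKM in the adult libraries and was not called (adjusted p = 0.225), although Dlk1 differed so widely. Under median-ratio scaling Meg3 was called lower (adjusted p over all alternatives 0.00691 to 0.807). Of 17 genes of the insulin-like growth factor axis, which shares Igf2, H19, Igf2r and Grb10 with the imprinted list, 12 were higher and 3 lower. Igfbp3, a carrier of the factor in plasma, had 133, 122 and 116 FPKM in the teratoma libraries, against 11.1, 9.72 and 7.34 FPKM in the adult libraries (log2 change 3.59, adjusted p = 3.27e-07). Igfbp4, another carrier, had 219, 287 and 288 FPKM in the teratoma libraries, against 37.8, 32.4 and 32.3 FPKM in the adult libraries (log2 change 2.91, adjusted p = 1.55e-06). Igfbp6, which prefers IGF2, went down, with 4.48, 12.4 and 9.14 FPKM in the teratoma libraries, against 31.3, 39.5 and 32.3 FPKM in the adult libraries (log2 change -1.96, adjusted p = 0.00501).

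**Figure D4:**
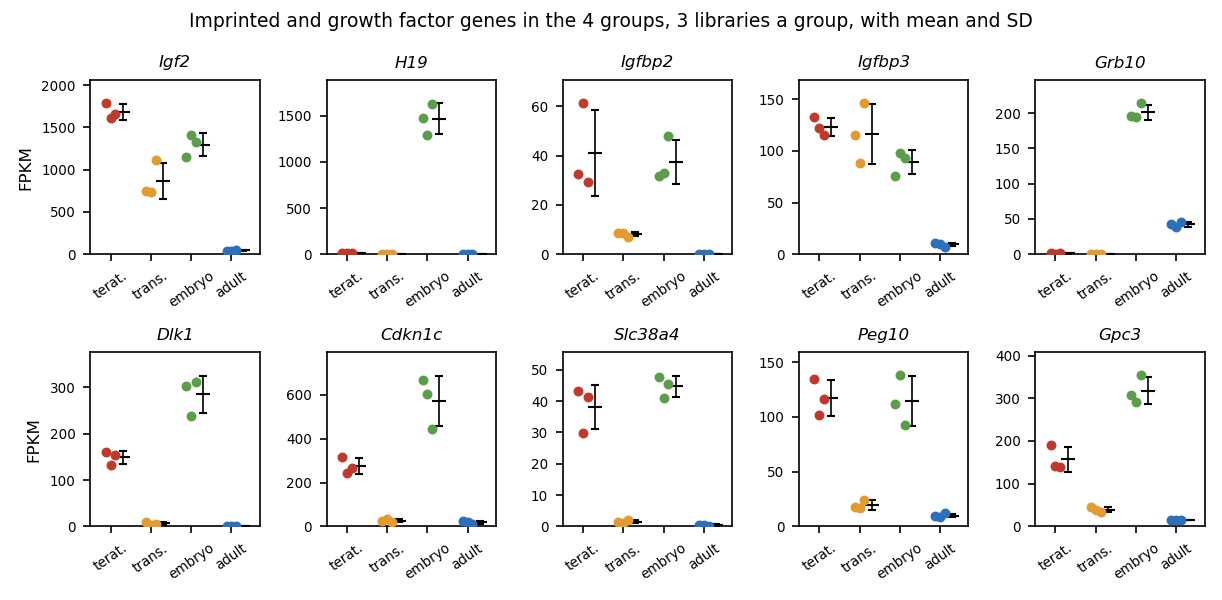
Library by library FPKM of 10 imprinted, growth factor and oncofetal genes in teratoma, transplant, embryo and adult cells, with mean and SD (n = 3). Teratoma points stand above adult points for every gene shown but Grb10, where teratoma and transplant libraries lie below 2 FPKM and adult libraries between 38.9 and 46.0.

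Oncofetal and pluripotency genes were read next. Of 9 oncofetal genes tested, 6 were higher and none lower, and 4 and 1 under median-ratio scaling. Gpc3, the glypican of fetal liver and embryonal tumours, had 189.9, 140.5 and 140.2 FPKM in the teratoma libraries, against 15.6, 14.3 and 15.8 FPKM in the adult libraries (log2 change 3.27 ± 0.16 SE, adjusted p = 1.35e-07). Igf2bp1, an RNA-binding protein of fetal tissues, had 6.17, 3.36 and 4.13 FPKM in the teratoma libraries, against 0, 0.0167 and 0 FPKM in the adult libraries, and Hmga2, a chromatin protein of fetal cells, had 7.38, 7.1 and 7.16 FPKM in the teratoma libraries, against 0.668, 0.318 and 0.746 FPKM in the adult libraries (adjusted p = 2.82e-05 and 0.00051). Hmga1, its relative, had 76, 19.5 and 25.6 FPKM in the teratoma libraries, against 66.4, 82.5 and 49.8 FPKM in the adult libraries and was not called (adjusted p = 0.105). Without teratoma 1, the highest of the teratoma values, it was called lower (adjusted p over leaving out each library 0.00532 to 0.362). Of 22 pluripotency genes listed only 6 were tested, and 9 were listed at 0 in all 3 teratoma libraries. The 5 called higher were Klf2, Klf5, Tbx3, Sox2 and Tfcp2l1. The last of these was lost without adult 1, 2 or 3 or teratoma 2 or 3 (adjusted p over leaving out each library 0.00619 to 0.0953). Klf5 had 154, 113 and 81.9 FPKM in the teratoma libraries, against 45.1, 32 and 24.7 FPKM in the adult libraries and Tbx3 had 24.3, 16.7 and 15.1 FPKM in the teratoma libraries, against 2.35, 2.61 and 2.32 FPKM in the adult libraries, both factors that many differentiated tissues use. Sox2, a factor of pluripotent and of neural cells, had 4.42, 4.16 and 1.07 FPKM in the teratoma libraries, against 0.0576, 0.0583 and 0.0582 FPKM in the adult libraries, lowest in teratoma replicate 3 as for the epithelial genes.

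Some genes of body position differed too, with the reservation that the adult cells came from hindlimb only. Of the 6 tested Hox genes of groups 6 to 8, none was called as deposited. Of the 16 Hox genes of groups 9 to 13, only 8 passed the filter, and of these 2 were lower and none higher. Among all 16, 8 were listed at 0 in all 3 adult libraries and 1 in all 3 teratoma libraries. Hoxc10, of lumbosacral segments and hindlimb, had 0.0549, 0.293 and 1.86 FPKM in the teratoma libraries, against 4.07, 5.62 and 5.92 FPKM in the adult libraries (log2 change -1.96 ± 0.34 SE, adjusted p = 0.000639). Hoxc9 had 0.0474, 0 and 0.485 FPKM in the teratoma libraries, against 1.01, 1.88 and 2.08 FPKM in the adult libraries (adjusted p = 0.00299). Of 12 tested Hox genes of groups 1 to 5, Hoxa3, Hoxb3 and Hoxd3 were called higher, at levels of at most 3.62 FPKM, and under quantile normalization none was higher and 2 were lower. Leaving out 1 library ended the call of Hoxa3 (adult 2, adult 3 or teratoma 3), Hoxb3 (any but teratoma 3) or Hoxd3 (adult 1, 2 or 3 or teratoma 3), with adjusted p of 0.00619 to 0.0914, 0.0359 to 0.0925 and 0.0149 to 0.0919 over the libraries left out. Among factors of head, trunk and limb muscle, 12 of 25 were higher and 2 lower, and 10 and 5 under quantile normalization. Tcf21, a factor of branchial and visceral mesoderm, had 8.76, 13.4 and 10.6 FPKM in the teratoma libraries, against 0, 0.142 and 0 FPKM in the adult libraries (log2 change 3.49 ± 0.23 SE, adjusted p = 1.12e-06). Tbx1, needed for pharyngeal muscles, had 13.8, 9.84 and 11.1 FPKM in the teratoma libraries, against 4.44, 1.62 and 1.8 FPKM in the adult libraries (log2 change 1.87, adjusted p = 0.000513). Isl1, of pharyngeal and cardiac mesoderm, had 6.0, 3.45 and 8.09 FPKM in the teratoma libraries, against 0, 0.0526 and 0 FPKM in the adult libraries (log2 change 2.69, adjusted p = 0.000175). All 3 were higher in each teratoma library than in any adult one. En1, of dorsal somite and ventral limb ectoderm, had 0.317, 0.404 and 2.2 FPKM in the teratoma libraries, against 6.01, 7.23 and 4.37 FPKM in the adult libraries (log2 change -1.90, adjusted p = 0.00128). Lbx1, which limb muscle precursors need to migrate, was at 0, 0.224 and 0 FPKM in the teratoma libraries, against 6.2, 1.01 and 0.552 FPKM in the adult libraries, and was not called as deposited (adjusted p = 0.121). It was called lower with a pseudocount of 0.1 and under quantile normalization (adjusted p over all alternatives 0.0259 to 0.427).

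Extracellular matrix genes were broadly higher in teratoma cells. Of 40 collagen genes tested 32 were higher and 3 lower, of 21 laminin and basement membrane genes 16 and 2, and of 32 fibronectin, fibrillin and matricellular genes 25 and 1. The summed cartilage markers stood at 143, 134 and 141 FPKM in the teratoma libraries, against 50.9, 40.5 and 45.1 FPKM in the adult libraries, and the fibroblast sums were given above. Their part in the matrix result was not tested. Col1a2, of the fibrillar collagen of stroma, had 846, 1208 and 1421 FPKM in the teratoma libraries, against 296, 249.7 and 203 FPKM in the adult libraries (log2 change 2.19, adjusted p = 3.92e-05). Col18a1, a basement membrane collagen, had 50.1, 47.1 and 52.7 FPKM in the teratoma libraries, against 7.6, 7.91 and 7.97 FPKM in the adult libraries (log2 change 2.53 ± 0.15 SE, adjusted p = 4e-07). Lamb1, the laminin β1 chain, had 91.2, 75.1 and 76.5 FPKM in the teratoma libraries, against 9.5, 10.1 and 6.84 FPKM in the adult libraries (log2 change 3.07 ± 0.21 SE, adjusted p = 1.12e-06). Lama3, the laminin α3 chain, stood against them with 4.16, 4.18 and 1.66 FPKM in the teratoma libraries, against 21.4, 22.3 and 25.5 FPKM in the adult libraries (log2 change -2.53 ± 0.39 SE, adjusted p = 0.000323). Eln, for elastin, had 223, 459 and 368 FPKM in the teratoma libraries, against 29.96, 20.7 and 17.7 FPKM in the adult libraries (log2 change 3.85, adjusted p = 2.73e-06). Fn1, for fibronectin, had 155, 270.5 and 222 FPKM in the teratoma libraries, against 15.4, 19.2 and 18.6 FPKM in the adult libraries (log2 change 3.50, adjusted p = 1.47e-06). Dcn, for decorin, had 156, 189 and 202 FPKM in the teratoma libraries, against 285, 263 and 221 FPKM in the adult libraries and was not called as deposited (adjusted p = 0.0634). It was called lower under median-ratio scaling and 3 other alternatives (adjusted p over all alternatives 0.00324 to 0.34). Of integrin subunits other than α7, 11 of 16 were higher and none lower, led by Itga3 and Itga6, which bind laminins (log2 changes 2.03 and 1.89).

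Signalling genes differed in both directions within each pathway read. In the Notch pathway, which keeps satellite cells undifferentiated, 9 of 23 were called higher and 1 lower, beside 36.4% and 8.94% of all genes. The share of higher calls was thus close to that of all genes. The medians of the list were 0.46 as deposited, 0.08 under median-ratio scaling and -0.10 under quantile normalization. Hey1, a target of the pathway, had 27.7, 35.8 and 32.4 FPKM in the teratoma libraries, against 112, 88.4 and 97.4 FPKM in the adult libraries (log2 change -1.60 ± 0.25 SE, adjusted p = 0.000384). Heyl, its relative and also a target, had 47.5, 39.997 and 36.4 FPKM in the teratoma libraries, against 8.36, 12 and 10.5 FPKM in the adult libraries (log2 change 1.91 ± 0.18 SE, adjusted p = 1.32e-05). Hes1, also a target, had 29.9, 31.6 and 15.9 FPKM in the teratoma libraries, against 7.34, 3.92 and 5.65 FPKM in the adult libraries (log2 change 1.99, adjusted p = 9.54e-05). Targets of the pathway thus differed in both directions. The receptor gene Notch1 had 43.5, 34.2 and 34.5 FPKM in the teratoma libraries, against 40.7, 37.2 and 46.4 FPKM in the adult libraries and was not called as deposited (adjusted p = 0.627), and median-ratio scaling called it lower (adjusted p over all alternatives 0.0151 to 0.87). Of 19 FGF receptor and feedback genes, 7 were called higher and 3 lower, and 3 and 6 under median-ratio scaling. Among FGF receptors, Fgfr1 had 93.5, 78.6 and 72.8 FPKM in the teratoma libraries, against 274, 285 and 319.9 FPKM in the adult libraries (log2 change -1.84 ± 0.16 SE, adjusted p = 5.45e-06). Fgfr4, of muscle precursors, had 77, 94.3 and 96.6 FPKM in the teratoma libraries, against 126, 126 and 124 FPKM in the adult libraries, and was not called as deposited (adjusted p = 0.133). It was called lower under median-ratio scaling and in the fit of the 6 libraries alone (adjusted p over all alternatives 0.0145 to 0.299). Dusp6, a feedback phosphatase of the pathway, had 58, 53.2 and 32.8 FPKM in the teratoma libraries, against 21.7, 15.2 and 15 FPKM in the adult libraries (log2 change 1.40, adjusted p = 0.00887).

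Of 32 BMP and TGF-beta genes, 14 were called higher and 3 lower as deposited, beside 36.4% and 8.94% of all genes, and 8 and 7 under median-ratio scaling. In BMP signalling, the ligand gene Bmp4 had 7.3, 8.77 and 7.44 FPKM in the teratoma libraries, against 34.9, 31 and 49.3 FPKM in the adult libraries (log2 change -2.13, adjusted p = 4.86e-05). Nog, the antagonist noggin, had 12.8, 13.5 and 11.1 FPKM in the teratoma libraries, against 0, 0.521 and 0.972 FPKM in the adult libraries (log2 change 3.22, adjusted p = 5.04e-05), while the antagonist Chrdl2 was lower as given above. Inhba, for the activin subunit, had 17.7, 22.9 and 13.3 FPKM in the teratoma libraries, against 2.62, 3.11 and 4.36 FPKM in the adult libraries (log2 change 2.11, adjusted p = 0.000232). In the Wnt pathway, 19 of 39 were called higher and 2 lower as deposited and 8 and 6 under quantile normalization. Wnt5a, a ligand of limb and face outgrowth, had 9.12, 15.6 and 8.24 FPKM in the teratoma libraries, against 2.0, 0.482 and 1.28 FPKM in the adult libraries and Wif1, a secreted inhibitor, had 11.5, 10.1 and 6.47 FPKM in the teratoma libraries, against 0, 0.678 and 1.44 FPKM in the adult libraries (adjusted p = 8.52e-05 and 0.000174). Sfrp5, another secreted inhibitor, was the counterpart, at 0, 0.301 and 0 FPKM in the teratoma libraries, against 7.88, 11.8 and 6.65 FPKM in the adult libraries (adjusted p = 0.000349).

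Most interferon-stimulated genes of the list were higher in teratoma cells, and 3 MHC class I genes were lower. This list held 41 tested genes, of which 26 were called higher and 3 lower, with a median change of 1.14. Isg15, the ubiquitin-like modifier that interferon induces, had 15.7, 31.8 and 17.4 FPKM in the teratoma libraries, against 1.35, 2.39 and 0.927 FPKM in the adult libraries (log2 change 3.12 ± 0.32 SE, adjusted p = 2.14e-05). Usp18, which removes it, had 8.23, 9.04 and 5.53 FPKM in the teratoma libraries, against 0.13, 0 and 0.322 FPKM in the adult libraries (log2 change 2.89, adjusted p = 1.63e-05). Irf7, a transcription factor of the response, had 6.6, 11.5 and 12 FPKM in the teratoma libraries, against 2.7, 0.837 and 0.826 FPKM in the adult libraries (log2 change 2.21, adjusted p = 0.000375). Gbp3, a guanylate-binding protein, had 17.2, 16.2 and 13.5 FPKM in the teratoma libraries, against 2.38, 2.54 and 1.32 FPKM in the adult libraries (log2 change 2.45, adjusted p = 9.23e-06). The 3 genes called lower are named after their values were seen. H2-K1 had 24.4, 29.9 and 17.9 FPKM in the teratoma libraries, against 91.6, 106 and 88.9 FPKM in the adult libraries, H2-D1 had 31.4, 40.7 and 40.9 FPKM in the teratoma libraries, against 78.8, 93.7 and 64.7 FPKM in the adult libraries and H2-Q4 had 17.1, 16.1 and 14.9 FPKM in the teratoma libraries, against 40.8, 40.03 and 35 FPKM in the adult libraries (adjusted p = 0.000211, 0.0134 and 0.00293). These genes are near copies of one another and can share reads, so their split is uncertain. The call of H2-D1 was lost without adult 2 (adjusted p over leaving out each library 0.0184 to 0.0528). B2m, the common light chain, had 189, 199 and 195 FPKM in the teratoma libraries, against 183, 160.5 and 123.4 FPKM in the adult libraries and was not called (adjusted p = 0.153). Transplant libraries also had high Isg15, at 26.5, 29.3 and 15.8 FPKM, and embryo libraries had 0, 0.191 and 0 FPKM. The summed leukocyte markers were 91.6, 125 and 255 FPKM in the teratoma libraries and highest in replicate 3, while Isg15 and Usp18 were highest in replicate 2, Irf7 in replicate 3 and Gbp3 in replicate 1. The part of leukocytes in the interferon result was not tested.

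The promoter of Isg15 (chr4:156200769-156201068, minus strand, RefSeq on GRCm38.p6, same window) is shown because it held matches, with capitals marking matches to GAAANNGAAA, searched for the interferon-stimulated response element, which overlap one another.
Isg15: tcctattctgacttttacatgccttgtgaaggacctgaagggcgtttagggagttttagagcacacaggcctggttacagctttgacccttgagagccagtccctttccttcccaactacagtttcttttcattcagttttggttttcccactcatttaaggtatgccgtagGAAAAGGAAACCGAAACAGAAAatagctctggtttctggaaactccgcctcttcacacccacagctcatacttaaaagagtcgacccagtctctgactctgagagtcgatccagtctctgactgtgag
It held 3 overlapping matches, starting at positions -78, -72 and -66 on the strand of the gene. The windows of Irf7 and of Oasl2, another gene of the list, had 0 matches. The motif, searched on both strands, was found in 16 of 40 windows of the tested genes of this list (40%), against 3.44% of all 32851 windows. The windows belong to 35 of the 41 genes, and a match is a description of the letters only.

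Stress genes, which tissue digestion can induce in any sample, were not alike in the 2 groups. Of 33 immediate early genes 16 were higher and 5 lower, which became 9 and 10 under median-ratio scaling. Fos, a subunit of AP-1, had 297, 425 and 435 FPKM in the teratoma libraries, against 109, 114 and 122 FPKM in the adult libraries and its partner Jun had 299, 403 and 361 FPKM in the teratoma libraries, against 114, 112 and 108 FPKM in the adult libraries (adjusted p = 2.76e-05 and 4.57e-05). Klf2 had 23.7, 36.6 and 31.9 FPKM in the teratoma libraries, against 7.21, 2.87 and 4.65 FPKM in the adult libraries (log2 change 2.47, adjusted p = 0.000148). Zfp36, which destabilizes cytokine mRNA, had 626, 782 and 734 FPKM in the teratoma libraries, against 674, 622 and 529 FPKM in the adult libraries and was not called (adjusted p = 0.452). Heat shock proteins leaned the other way, with 6 of 29 higher and 9 lower, a median change of -0.29, and 4 higher and 20 lower under median-ratio scaling. Hspa8, the constitutive chaperone HSC70, had 1008, 929 and 868 FPKM in the teratoma libraries, against 2155, 2271 and 2187 FPKM in the adult libraries (log2 change -1.24 ± 0.16 SE, adjusted p = 8.14e-05), a call that was lost under quantile normalization (adjusted p over all alternatives 6.75e-06 to 0.531). Cryab, αB-crystallin, which is abundant in muscle, had 27.8, 35.6 and 38 FPKM in the teratoma libraries, against 129, 141 and 118 FPKM in the adult libraries (log2 change -1.91 ± 0.19 SE, adjusted p = 1.79e-05). Bag3, a co-chaperone, had 174, 152 and 138 FPKM in the teratoma libraries, against 364, 343 and 356 FPKM in the adult libraries (log2 change -1.20, adjusted p = 6.59e-05). Serpinh1, the collagen chaperone HSP47, was higher, with 284, 321 and 304 FPKM in the teratoma libraries, against 117, 136 and 96.4 FPKM in the adult libraries (log2 change 1.38, adjusted p = 0.000268). Mt2, a metal-binding metallothionein, had 244, 387 and 297 FPKM in the teratoma libraries, against 1197, 1093 and 761 FPKM in the adult libraries, and Slc39a14, a zinc and iron importer, had 9.37, 13.9 and 10.1 FPKM in the teratoma libraries, against 95.4, 98.9 and 103.1 FPKM in the adult libraries, both lower (adjusted p = 0.000411 and 1.78e-06). Mt1, its neighbour and relative, had 292, 345 and 324 FPKM in the teratoma libraries, against 509, 564 and 334 FPKM in the adult libraries and was not called (adjusted p = 0.521).

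Genes of energy metabolism were higher in teratoma cells. Of 82 nuclear genes for subunits of oxidative phosphorylation, 69 were called higher and none lower, with a median change of 1.26, above the 0.50 of all genes. The counts were 49 and 0 under median-ratio scaling and 62 and 1 under quantile normalization. Ndufs7, a subunit of complex I, had 32.5, 65.8 and 53.4 FPKM in the teratoma libraries, against 6.85, 6.11 and 5.9 FPKM in the adult libraries (log2 change 2.77 ± 0.25 SE, adjusted p = 8.54e-06). Ndufa9, another, had 31.6, 32.4 and 29.7 FPKM in the teratoma libraries, against 5.64, 7.39 and 1.49 FPKM in the adult libraries (log2 change 2.64, adjusted p = 0.000326). Atp5b, the catalytic subunit of ATP synthase and the most abundant gene of the list that was not called, had 263, 235 and 238 FPKM in the teratoma libraries, against 207, 193 and 197 FPKM in the adult libraries (adjusted p = 0.112). It was called higher under quantile normalization (adjusted p over all alternatives 0.0359 to 0.568). In glucose uptake and glycolysis, 18 of 27 were called higher and 2 lower. Tpi1, triosephosphate isomerase, had 46.1, 63.1 and 51.4 FPKM in the teratoma libraries, against 7.86, 11.6 and 8.42 FPKM in the adult libraries and Eno1, enolase, had 81.2, 83 and 70.3 FPKM in the teratoma libraries, against 21.7, 15.9 and 14 FPKM in the adult libraries (adjusted p = 4.7e-06 and 1.05e-05).

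Purine genes leaned towards lower levels, with Hprt far lower. Hprt, the X-linked enzyme that salvages hypoxanthine and guanine (chromosome X from 52988137 to 53021659), had 0.579, 1.69 and 1.45 FPKM in the teratoma libraries, against 57.3, 43.5 and 32.7 FPKM in the adult libraries (log2 change -4.35 ± 0.38 SE, adjusted p = 6.46e-06). It was at 2.02, 0.323 and 0.152 FPKM in transplant libraries and 23.4, 43.8 and 28.9 FPKM in embryo libraries, so it was low in the transplant libraries, with the same reservation on host cells, and high in the embryo libraries. Of 19 purine genes tested, 6 were higher and 8 lower, and 1 and 10 under median-ratio scaling. Ampd3, an AMP deaminase, had 6.79, 6.12 and 4.85 FPKM in the teratoma libraries, against 39.7, 43.4 and 39.7 FPKM in the adult libraries (log2 change -2.61, adjusted p = 0.000122), and Ppat, the first enzyme of new purine synthesis, had 9.25, 3.65 and 4.98 FPKM in the teratoma libraries, against 17.9, 15.4 and 11.2 FPKM in the adult libraries (log2 change -1.25, adjusted p = 0.00789). Gart, a later enzyme of that route, was higher, with 9.72, 7.47 and 8.75 FPKM in the teratoma libraries, against 5.44, 2.13 and 3.47 FPKM in the adult libraries (adjusted p = 0.0038), and its call was lost under median-ratio scaling and quantile normalization (adjusted p over all alternatives 0.00126 to 0.106). The salvage enzyme gene for adenine, Aprt, had 27.8, 29.4 and 50.8 FPKM in the teratoma libraries, against 23.7, 26.3 and 33.7 FPKM in the adult libraries and was not called (adjusted p = 0.279).

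Genes of the sex chromosomes were read as a check of origin. The Y-linked gene Ddx3y had 16.7, 13.1 and 11.7 FPKM in the teratoma libraries, against 50.9, 42.5 and 38.4 FPKM in the adult libraries, and Eif2s3y had 8.42, 7.72 and 4.71 FPKM in the teratoma libraries, against 13.1, 7.44 and 10.6 FPKM in the adult libraries. Uty had 2.33, 2.1 and 2.77 FPKM in the teratoma libraries, against 5.96, 5.28 and 4.67 FPKM in the adult libraries and Kdm5d had 0.131, 0.378 and 0.175 FPKM in the teratoma libraries, against 1.38, 0.845 and 2.03 FPKM in the adult libraries. All 4 Y-linked genes were thus detected in every library of both groups, and none was called in the fit of 12 libraries (adjusted p from 0.0885 to 0.553). The teratoma values of Ddx3y, Kdm5d and Uty nevertheless all lay below their adult values, while those of Eif2s3y overlapped. Ddx3y, Kdm5d and Uty were called lower in teratoma cells when the 6 libraries were fitted alone, with library quality weights and under median-ratio scaling. Their adjusted p over all alternatives were 0.000256 to 0.367, 0.00383 to 0.233 and 0.00868 to 0.411. Xist, the RNA that coats an inactive X, had 1.81, 1.9 and 2.5 FPKM in the teratoma libraries, against 0.0957, 0.206 and 0 FPKM in the adult libraries (log2 change 1.48 ± 0.21 SE, adjusted p = 0.000161). Both Y-linked transcripts and low Xist were therefore present in the teratoma libraries, and whether they come from the same cells was not tested.

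**Figure D5:**
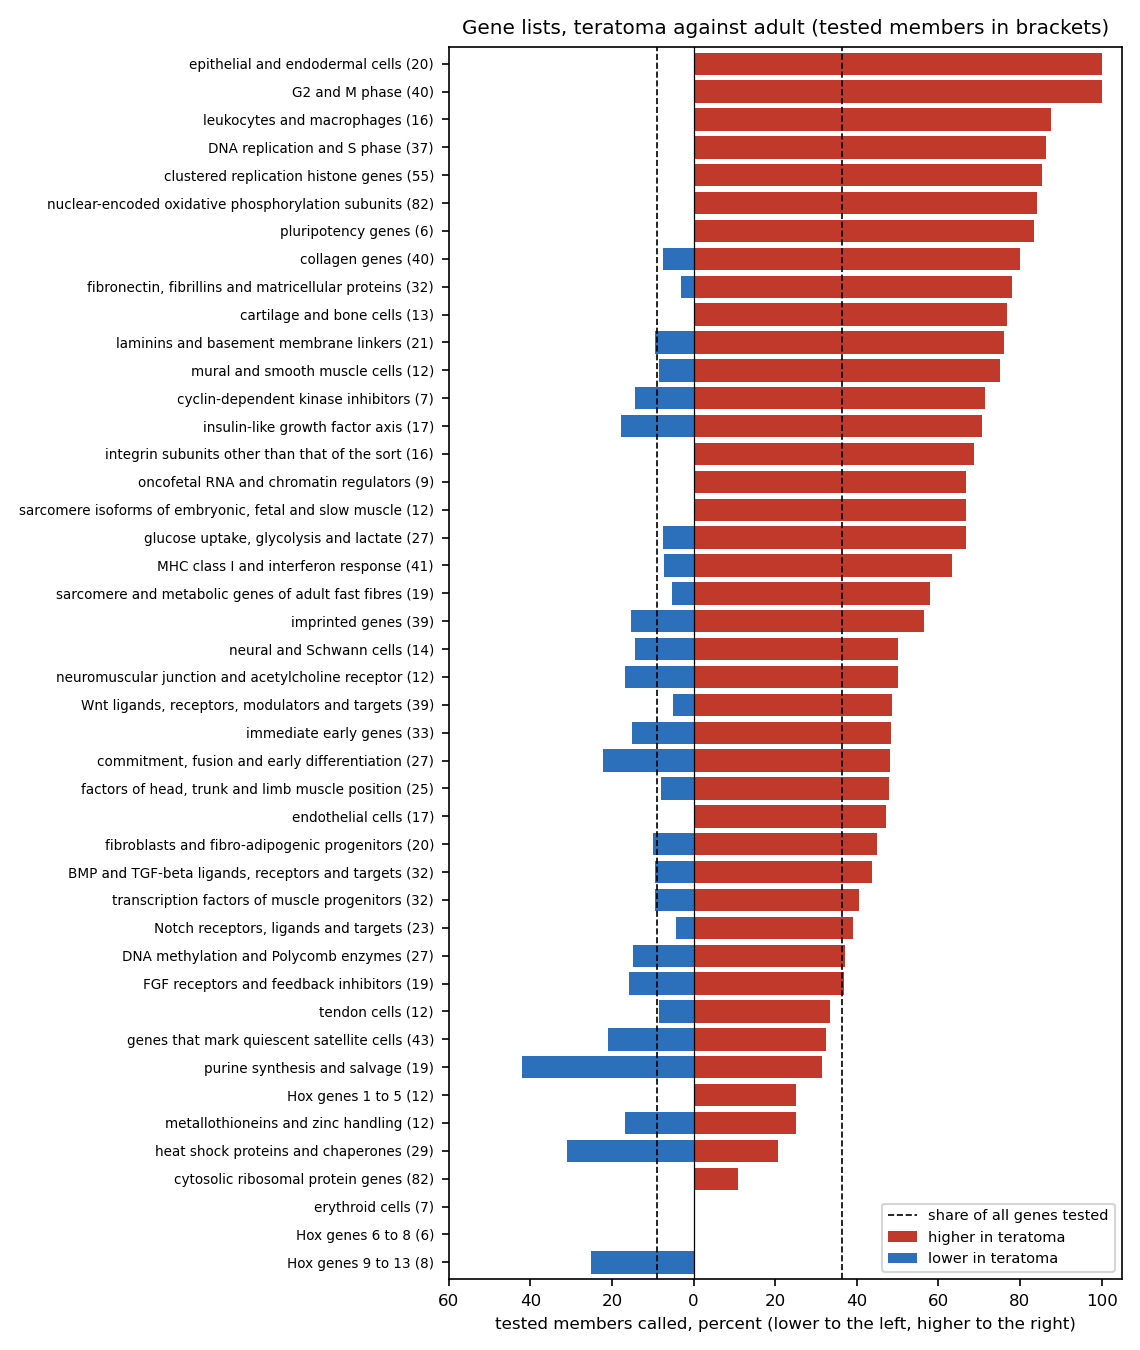
Percent of the tested members of each gene list called higher (red, to the right) or lower (blue, to the left) in teratoma against adult libraries, with the number tested in brackets. Dashed lines mark the percentages over all 12699 genes tested, 36.4 higher and 8.94 lower; cell cycle, histone, oxidative phosphorylation and epithelial lists are among the farthest to the right, and purine and heat shock genes among the farthest to the left.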

How the data were processed

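Per the labels' protocols, RNeasy columns and DNase I were used to isolate RNA from sorted cells, and the SMARTer Pico kit (stranded, total RNA) to build the sequencing libraries. The submitters' processing notes list Partek, Cufflinks 2.2.1.0, TopHat 0.7, CASAVA 1.8.2 and mm10, with no role or order. The sources used here do not give read numbers, gene models or strand use. The values the authors deposited are FPKM, with a gene symbol per line and a library per column, per the file headers. Depth is therefore unknown, and neither intervals nor detection limits are given. Each of the 12 columns carries the name of 1 library. Among 23746 lines, 462 repeated 1 of 240 symbols and were added to it, which left 23284 symbols.

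Of these, 12699 had at least 1 FPKM in at least 3 of 12 libraries and were tested. A model with 4 groups (8 residual degrees of freedom) was fitted to log2(FPKM + 1) with limma 3.58.1 in R 4.3.3, with an intensity trend. The teratoma minus adult contrast was tested two-sided with Benjamini-Hochberg adjustment over the 12699 genes, and the threshold was an adjusted p of 0.05. In data simulated for this comparison, the fit recovered 39% of 100 genes with a log2 change of 1 and 90% of 100 with a change of 2. It called 4 of 12499 genes that had none. Only genes with a mean log2(FPKM + 1) above 2 were changed there, and far fewer than were called in the data. The comparison, the 45 gene lists and the naming rule were chosen with earlier results of these data known. The rule names regulators, sort genes and sex-linked genes. Next come the 12 largest increases and 12 largest decreases among called genes without overlap of the groups and with a higher mean of at least 5 FPKM, except histone, ribosomal protein, mitochondrial, predicted and small RNA genes. Each list adds up to 6 called members by size and up to 3 abundant ones not called, or any member where at most 15 were tested. Markers listed at 0 follow the marker lists. The alternatives were median-ratio scaling, quantile normalization, rescaling without small RNA, a pseudocount of 0.1, no filter, a mean of at least 5 FPKM, a fit of the 6 libraries alone, library quality weights, a replicate block, no intensity trend, isolated zeros set to missing, a minimum log2 change of 1 and the omission of single libraries. Gene positions are those of GENCODE M21, an annotation of mm10, looked up by symbol.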

Additional observations from a re-analysis of the deposited data

How the results depend on the processing

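With a mean of at least 5 FPKM, 3720 genes of 7068 were called, 2746 of them higher, and the median change was 0.37, with fewer genes tested. The causes of the other shifts were not tested. Median-ratio scaling gave 2923 higher and 2590 lower calls and a median of 0.12, quantile normalization 2285, 2411 and -0.048. The median was 0.37 after rescaling without small RNA, 0.27 without a filter and 0.68 with a pseudocount of 0.1. Requiring a log2 change of at least 1 left 600 lower calls. Leaving out 1 library gave 4737 to 5199 calls, 3865 to 4112 higher and 810 to 1225 lower, with medians of 0.47 to 0.54.

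Of 173 genes named, 132 kept their direction and their call in every alternative run. Under median-ratio scaling the uncalled genes Aprt, Atp5b, B2m, Cav1, Cd68, Chrna1, Itgb1, Myf5, Tpm3 and Zfp36 turned to log2 changes of -0.20, -0.24, -0.20, -0.10, -0.44, -0.18, -0.28, -0.17, -0.49 and -0.31, of which that of Tpm3 was called. Quantile normalization turned Cd68 to -0.42 and Chrna1 to -0.32, rescaling without small RNA turned Cd68 to -0.14 and Tpm3 to -0.15, and quality weights turned Cd68 to -0.023. Leaving out 1 library gave changes of -0.27 to 0.24 for Cd68, -0.015 to 0.073 for Tpm3 and -0.28 to 0.057 for Pax3. Further calls were lost under quantile normalization (Cdkn2b, Cdkn2d and Tyrobp), with a pseudocount of 0.1 (Mbp and H2-D1) and without an intensity trend (Itga7).

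Deviations from the group means correlated at 0.079, 0.060 and -0.035 across same-numbered libraries. Teratoma 1 and teratoma 2 were closest to the adult library of the same number, and teratoma 3 was closest to adult 2. With 3 libraries a group, such small correlations cannot show whether the shared replicate numbers pair the libraries. With the number as a replicate block, 5531 genes were called, 4473 higher and 1058 lower, and 5394 of 5763 calls were shared.

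With 3 libraries a group and FPKM alone, counting error cannot be separated from the spread between libraries. The simulation left 12499 of 12699 genes unchanged, whereas 5763 genes were called in the data. With so few changed genes its adjusted p threshold was harder to reach, so its recovery is not that of the real comparison. An uncalled gene is still not shown to be unchanged. How many genes were higher or lower depends on the scaling, so calls of genes with small changes depend on it too. Nfix was called as deposited and not under median-ratio scaling, whereas Vcam1 was called only under median-ratio scaling. No fold is given for genes listed at 0 throughout a group.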

Other observations

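Ribosomal protein genes, which the lists above leave out, were close to the adult level as deposited. Of 82 tested, 9 were called higher in teratoma cells and 0 lower, with a median log2 change of 0.27, below the 0.50 of all genes. The counts were 2 higher and 23 lower under median-ratio scaling and 43 higher and 0 lower under quantile normalization, so their direction rests on the scaling. Of 12 tendon marker genes tested, 4 were higher and 1 lower, and of 3 adipocyte marker genes 0 were higher and 1 lower.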
